A study of Mus musculus with 31 samples.

Results

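The genes described here are 9 sodium channel genes of the mouse, chosen by name: the pore-forming alpha subunits Scn1a, Scn2a, Scn3a, Scn8a and Scn9a, the accessory beta subunits Scn2b, Scn3b and Scn4b, and the sodium leak channel Nalcn. All 9 were found among the 55421 mouse genes of the count table, and all 9 counted as measured, which asks that 25% or more of the LOC or of the MOC cells hold a read. Their levels were followed in 31 neurons, each sequenced as a library of its own after patch-clamp recording. There were 18 lateral olivocochlear (LOC) neurons from the lateral superior olive and 13 medial olivocochlear (MOC) neurons from the ventral nucleus of the trapezoid body. Both groups came from acute brainstem slices of ChAT-IRES-Cre; tdTomato mice, in which a Cre recombinase at the choline acetyltransferase gene switches on a red protein in cholinergic cells, and the labels give the genotype of all 31 as wild-type. No animal and no age is named in the labels, so a group is treated as a single sample without a test, and every difference describes these libraries.

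LOC and MOC neurons send cholinergic axons from the brainstem to the cochlea, LOC neurons mainly to auditory nerve fibres and MOC neurons to outer hair cells. A voltage-gated sodium channel is 1 large alpha subunit that opens on depolarisation, carries the upstroke of the action potential and shuts again within milliseconds when an intracellular loop closes the pore. Alpha subunits differ in the voltage at which they open and in how fast they recover, and beta subunits alter their gating and their place on the membrane. NALCN is a related channel that passes a steady leak current of sodium and helps to set the resting potential.

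The alpha subunits are closely alike in parts of their sequence, which matters for reads of 75 bases. A read that fits more than 1 of them cannot be placed, and the sources used here do not say how the authors' counting treated such reads. Of all windows of 75 bases in the transcripts (GENCODE M21 on GRCm38), at most 2.23% of those of Scn3a were found in 1 other member, and this was Scn9a. Scn8a, Scn2b, Scn3b, Scn4b and Nalcn shared no such window with another member.

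The genes fall into few places in the genome. Scn3a (chr2:65457118-65567627), Scn2a (chr2:65620771-65767447), Scn1a (chr2:66270778-66440840) and Scn9a (chr2:66480080-66634962) stand side by side in 1.18 Mb of chromosome 2. Scn2b (chr9:45117782-45130070) and Scn4b (chr9:45138395-45154152) are near neighbours on chromosome 9, which also carries Scn3b (chr9:40269217-40291618), while Scn8a (chr15:100869858-101045938) and Nalcn (chr14:123276634-123627144) stand alone.

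The libraries held between 356412 and 1404896 counts in LOC cells and between 598028 and 2627174 in MOC cells. Levels are CPM, each gene's counts scaled by the library's total over mouse genes, and a count of 0 allows up to 3 counts, which is 2.14 to 8.42 CPM in a LOC cell and 1.14 to 5.02 CPM in a MOC cell. The labelled cell type was checked by the reads of Chat, Slc18a3 and Slc5a7, the enzyme and the transporters of acetylcholine. Their median was 305.5 reads in LOC cells and 28 reads in MOC cells, with fewer than 10 reads in 4 LOC and 5 MOC cells and none in 2 LOC cells and 1 MOC cell. The sets of cells named below by cholinergic reads use these 3 genes alone. A list of 7 markers added Isl1, Gata3, Gata2 and Prph. Over these 7, MOC cell 4, with only 3 cholinergic reads, stood at 1872 CPM, of which Prph gave 1411 CPM. The rest of the cells with fewer than 10 reads stood at 1.97 to 98.8 CPM. Oligodendrocyte genes were present in every library, with a summed level of 22.7 to 238537 CPM in LOC cells and 363 to 123302 CPM in MOC cells.

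Scn9a, Scn3a, Scn2a and Nalcn were higher in LOC cells and no member was higher in MOC cells by the rule of size. The rule asks for a ratio of summed CPM of 2 or more, a mean log2(CPM + 1) over cells that is higher by 1 or more, and reads in 25% or more of the higher group's cells. That is 4 of 9 members in the direction of LOC, where 6.07% of the 17754 measured genes met the rule, and 0 of 9 in the direction of MOC, where 5.67% did. Among the 9654 measured genes whose summed CPM averaged at least 10 over both groups, the shares were 9.47% for LOC and 7.98% for MOC. The median difference over the 9 members was 0.40 on the log2 scale, LOC minus MOC, against -0.07 over all measured genes. The members were chosen with earlier results of these data known, so their distance from all genes is not a separate result.

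**Figure D1:**
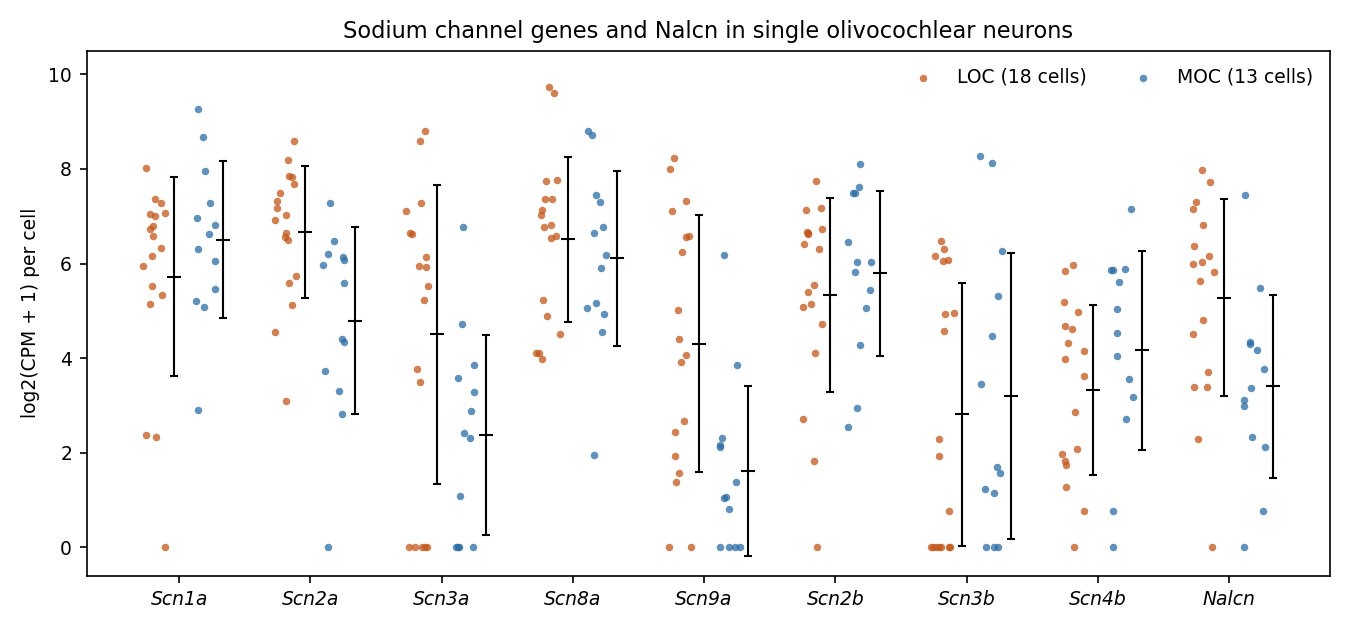
Level of the 9 genes in each cell, as log2(CPM + 1) on the vertical axis, with 18 LOC cells left of 13 MOC cells for each gene; every point is 1 cell and the bar with whiskers is the mean with its SD over cells. Scn9a, Scn3a, Scn2a and Nalcn sit higher in LOC cells, and for each gene the ranges of both groups overlap.

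Scn9a, which encodes the alpha subunit NaV1.7 known from pain-sensing and sympathetic neurons, showed the widest difference of means of the 9, while by medians over cells Scn3a was wider (3.31 against 3.16 for Scn9a). Its level ran from 0 CPM over a median of 17.9 CPM to 299.7 CPM in LOC cells, and from 0 CPM over a median of 1.10 CPM to 71.9 CPM in MOC cells. The groups overlapped at the low end, while 7 of 18 LOC cells lay above the highest MOC cell. A read was found in 16 of 18 LOC cells and 9 of 13 MOC cells, and 5 or more reads in 12 LOC and 3 MOC cells. The mean of log2(CPM + 1) was 4.30 ± 2.72 in LOC cells (SD, n = 18) and 1.61 ± 1.80 in MOC cells (SD, n = 13), a difference of 2.69.

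Single cells carried much of these Scn9a counts. LOC cell 5 held 37.1% of the LOC counts and MOC cell 5 held 60.6% of the MOC counts. Summed over cells, Scn9a stood at 79.7 CPM in LOC cells (exact 95% Poisson interval 75.1 to 84.4) and 5.21 CPM in MOC cells (4.07 to 6.57), a ratio of 15.3. Without MOC cell 5 the MOC level was 2.15 CPM and the ratio 37.1. Among cells with at least 50 cholinergic reads, Scn9a stood at 100.6 CPM in 12 LOC cells and 10.45 CPM in 5 MOC cells, a ratio of 9.63. The Poisson intervals treat reads as independent counts and leave out the spread between cells. An antisense gene, Gm13629, overlaps 180 exon bases of Scn9a and had 289 counts in LOC and 565 counts in MOC cells. The libraries keep no strand, so reads of that overlap cannot be assigned to either gene.

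Scn3a encodes NaV1.3, an alpha subunit best known from the embryonic brain. LOC cells 2, 9, 12, 16 and 17 had 0 reads, and the other 13 ranged from 7 reads in cell 6 to 424 reads in cell 3. Among those without a read, cells 2, 9 and 17 had 17.2%, 12.3% and 23.9% of their counts in oligodendrocyte genes. Cell 16 had 0 cholinergic reads, while cell 12 had 346. The level ran from 0 CPM over a median of 52.4 CPM to 444 CPM in LOC cells, and from 0 CPM over a median of 4.32 CPM to 109 CPM in MOC cells. Both groups reached 0, and 4 LOC cells lay above the highest MOC cell. The mean of log2(CPM + 1) was 4.50 ± 3.16 in LOC cells (SD, n = 18) and 2.38 ± 2.12 in MOC cells (SD, n = 13), a difference of 2.13.

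Scn3a had a read in 9 of 13 MOC cells, of which 6 held 5 or more. The summed level was 99.5 CPM in LOC cells (94.3 to 104.8) and 13.6 CPM in MOC cells (11.7 to 15.7), a ratio of 7.33. MOC cell 9 held 58.4% of the MOC counts, and without it the MOC level was 6.09 CPM and the ratio 16.3. Among cells with at least 10 cholinergic reads Scn3a stood at 107 CPM in LOC cells and 7.18 CPM in MOC cells, a ratio of 14.9, and the ratio was 16.1 with at least 50 such reads. The difference of means was then 2.65 with at least 10 and 3.26 with at least 50.

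Scn2a, the gene of NaV1.2, a main alpha subunit of unmyelinated axons and of the axon initial segment, was read in all 18 LOC cells and in 12 of 13 MOC cells. Its level ran from 7.56 CPM over a median of 124 CPM to 386 CPM in LOC cells, and from 0 CPM over a median of 47.4 CPM to 154 CPM in MOC cells. Here the LOC cells varied least of the alpha subunits, and 7 of them lay above the highest MOC cell. On the log2(CPM + 1) scale the mean was 6.66 ± 1.39 in LOC cells (SD, n = 18) and 4.79 ± 1.98 in MOC cells (SD, n = 13), a difference of 1.86 and a ratio of summed levels of 3.13.

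Scn1a and Scn8a, the alpha subunits NaV1.1 and NaV1.6 that fast-firing neurons carry at the axon initial segment and the nodes of Ranvier, did not meet the rule in either direction. Scn1a ran from 0 CPM over a median of 87.1 CPM to 257 CPM in LOC cells, and from 6.43 CPM over a median of 97.3 CPM to 616 CPM in MOC cells. All but the 2 highest MOC cells lay within the LOC range. Its mean of log2(CPM + 1) was 5.72 ± 2.10 in LOC cells (SD, n = 18) and 6.51 ± 1.67 in MOC cells (SD, n = 13), a difference of -0.78 that is smaller than the SD in either group.

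Scn8a was read in all 31 cells. Its level ran from 14.8 CPM over a median of 110 CPM to 856 CPM in LOC cells, and from 2.88 CPM over a median of 71.1 CPM to 445 CPM in MOC cells. LOC cells 7 and 14 were the only cells above the MOC range. Its mean of log2(CPM + 1) was 6.52 ± 1.74 in LOC cells (SD, n = 18) and 6.11 ± 1.85 in MOC cells (SD, n = 13). The difference of 0.40 changed sign to -0.27 among cells with at least 10 cholinergic reads and to -0.12 among those with at least 50, so no direction is given for Scn8a.

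**Figure D2:**
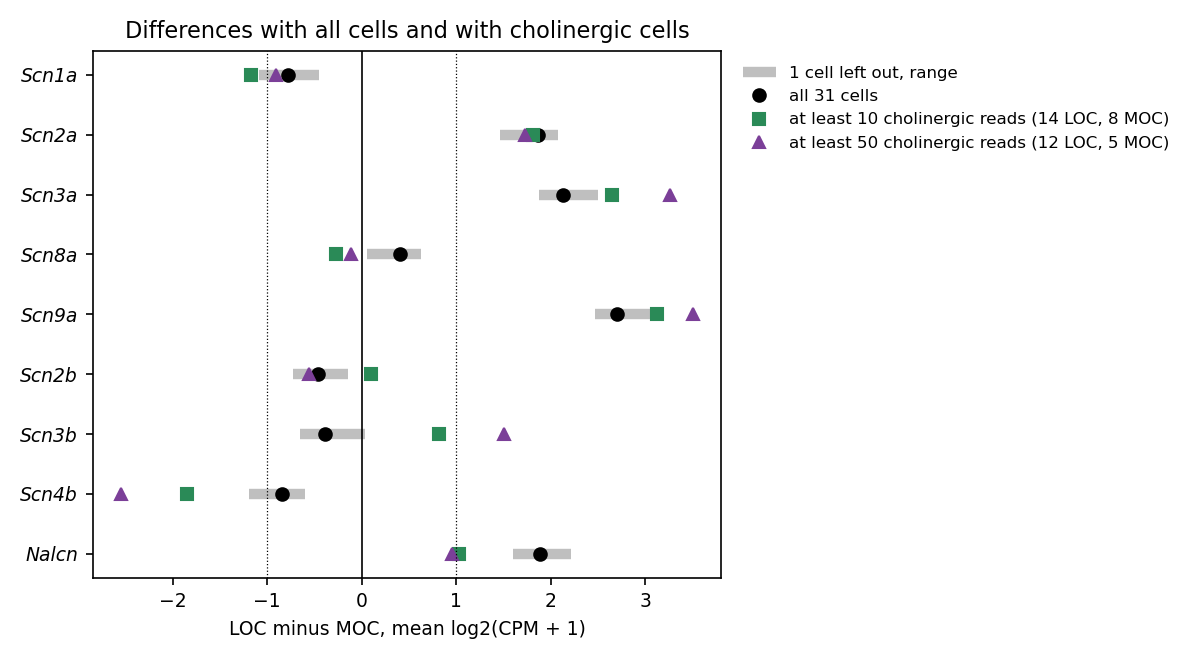
Difference of the mean log2(CPM + 1), LOC minus MOC, on the horizontal axis for each of the 9 genes down the page. Circles stand for all 31 cells, squares and triangles for cells with at least 10 and at least 50 cholinergic reads, grey bars for the range with 1 cell left out, and dotted lines for a difference of 1 either way. The values of Scn9a, Scn3a, Scn2a and Nalcn stay to the right of 0, those of Scn1a and Scn4b to the left, and those of Scn8a, Scn2b and Scn3b fall on both sides.

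Within a cell, the mix of alpha subunits can be described without the library size. Reads of the 10 alpha subunit genes were divided by the length of their merged exons and given as shares of their sum. The mean shares of Scn2a, Scn3a and Scn9a were larger in LOC cells and that of Scn1a was larger in MOC cells. Scn2a, Scn3a and Scn9a met the rule for LOC on these same counts, so their larger joint share there is not a separate result. The shares of a cell have a fixed sum, so that of Scn1a depends on theirs. The 3 genes together made up 50.7% ± 14.01 of the alpha subunit reads per kilobase in LOC cells (SD, n = 18) and 22.7% ± 18.1 in MOC cells (SD, n = 13). They exceeded 50% in 11 of 18 LOC cells and in 1 of 13 MOC cells, with ranges of 17.01% to 68.7% in LOC and 1.10% to 51.2% in MOC cells that overlapped.

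Scn1a took 17.4% ± 10.99 in LOC cells and 40.6% ± 21.1 in MOC cells (SD, n = 18 and 13). Scn2a took 29.1% ± 15.95 in LOC cells and 18.1% ± 17.7 in MOC cells. Scn8a took 24.0% ± 16.4 in LOC cells and 22.4% ± 10.6 in MOC cells. For both Scn2a and Scn8a the mean shares differed by less than the SD of either group. For Scn3a the shares were 12.6% ± 15.1 in LOC cells and 3.17% ± 4.94 in MOC cells, and for Scn9a they were 9.06% ± 12.1 in LOC cells and 1.40% ± 2.18 in MOC cells. For Scn3a and Scn9a the difference was smaller than the SD over LOC cells and larger than that over MOC cells.

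The leading alpha subunit differed from cell to cell. Scn2a led in 6 LOC and 3 MOC cells, Scn8a in 5 LOC cells and 1 MOC cell, and Scn1a in 2 LOC and 7 MOC cells. Scn3a led in 3 LOC cells and Scn9a in LOC cell 5, and neither led in a MOC cell. The remaining 3 cells were led by a gene outside the 9. LOC cell 13 was led by Scn7a, the sodium-sensing relative of the family, with 135 of 567 alpha subunit reads, a share of 35.1% once divided by length. MOC cell 10 was led by Scn11a with 77 of 361 reads, 38.1% by length, and MOC cell 4 by Scn10a with 16 of only 37 reads, 56.0% by length. All 5 alpha subunits among the 9 were read in 13 of 18 LOC cells and 7 of 13 MOC cells.

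**Figure D3:**
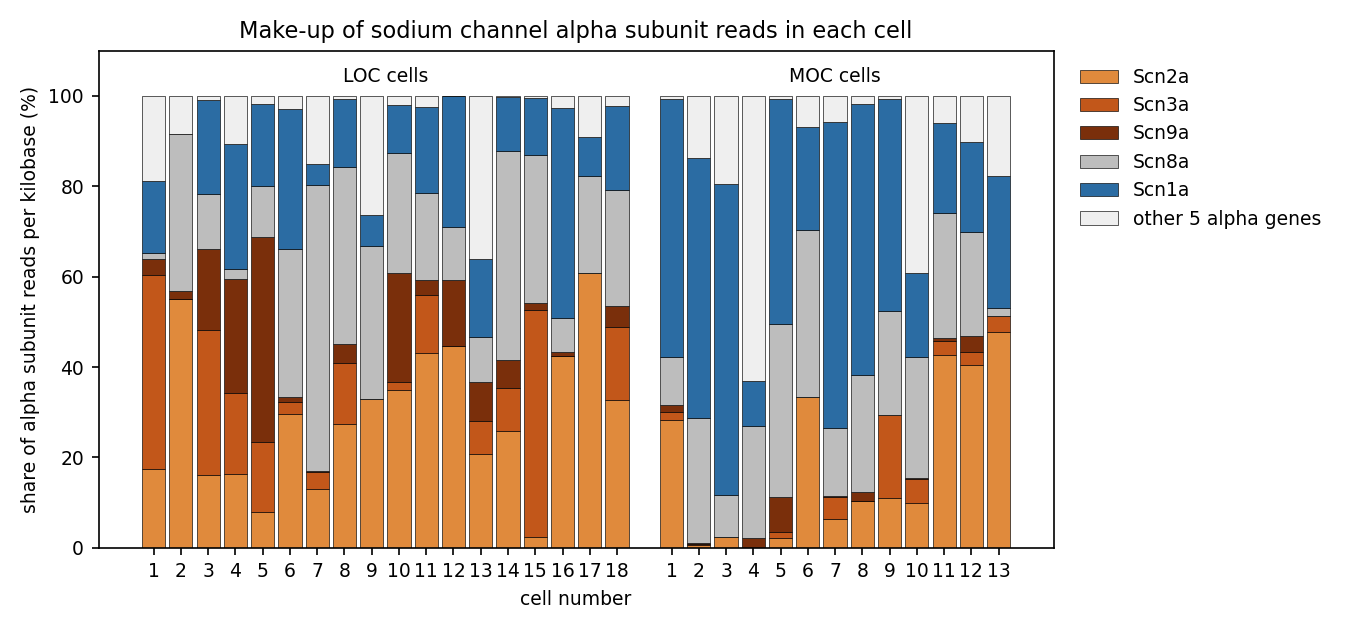
Share of each alpha subunit gene among the reads per kilobase of the 10 alpha subunit genes, in percent on the vertical axis, as 1 stacked bar per cell with the 18 LOC cells left of the 13 MOC cells. Scn2a, Scn3a and Scn9a, which met the rule for LOC on the same counts, together take a mean of 50.7% in LOC cells and 22.7% in MOC cells. The mix varies between cells of each group.

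Divided by the length of merged exons, the summed levels of the 9 genes had a different order in each group. In LOC cells Scn2b came first with 15.998 CPM per kilobase, followed by Scn2a with 10.4, Scn8a with 9.64, Scn1a with 8.10 and Scn3a with 7.98 CPM per kilobase. Scn9a (6.24), Nalcn (4.66), Scn3b (4.50) and Scn4b (2.80) followed. In MOC cells Scn2b was first again with 20.2 CPM per kilobase, and Scn1a with 13.3 and Scn3b with 9.24 came next. Scn4b (7.80), Scn8a (6.75), Scn2a (3.31), Nalcn (1.39), Scn3a (1.09) and Scn9a (0.41) followed. The place of Scn3b in MOC cells rests on a few of them, since its median over MOC cells was 0.41 CPM per kilobase. The order also depends on the length used: by the longest transcript, Nalcn (9.63) passed Scn9a (8.10) in LOC cells, and Scn8a (9.30) passed Scn4b (7.80) in MOC cells. The means over cells of log2(CPM per kilobase + 1) of neighbours in these orders differed by less than the SD of either gene, except for Scn1a with 3.28 ± 1.40 and Scn3b with 1.83 ± 2.15 in MOC cells (SD, n = 13).

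The beta subunits did not meet the rule in either direction. Scn2b, which is linked to the alpha subunit by a disulfide bond, ran from 0 CPM over a median of 61.9 CPM to 215 CPM in LOC cells, and from 4.82 CPM over a median of 64.0 CPM to 276 CPM in MOC cells. Nearly the whole of both ranges was shared. In the mean of log2(CPM + 1) it had 5.33 ± 2.05 in LOC cells (SD, n = 18) and 5.79 ± 1.75 in MOC cells (SD, n = 13), and the difference of -0.46 was 0.10 among cells with at least 10 cholinergic reads and -0.55 among those with at least 50.

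Scn4b encodes the other disulfide-linked beta subunit, known for its part in resurgent sodium current. Its level ran from 0 CPM over a median of 13.1 CPM to 61.7 CPM in LOC cells, and from 0 CPM over a median of 22.3 CPM to 141 CPM in MOC cells. The groups overlapped except for 1 MOC cell. Its mean of log2(CPM + 1) was 3.33 ± 1.80 in LOC cells (SD, n = 18) and 4.17 ± 2.10 in MOC cells (SD, n = 13), a difference of -0.84 that missed the rule. Restricting the cells changed this call. With at least 10 cholinergic reads, Scn4b stood at 12.2 CPM in 14 LOC cells and 48.6 CPM in 8 MOC cells, a difference of -1.84, and with at least 50 at 8.99 CPM in 12 LOC cells and 62.9 CPM in 5 MOC cells, a difference of -2.54. Leaving out MOC cell 8 gave -1.13 and leaving out MOC cell 13 gave -1.19. All of these met the rule in the direction of MOC. Of all measured genes, 6.9% met it for MOC with at least 10 cholinergic reads and 9.66% with at least 50.

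Scn3b, a beta subunit held to the channel without a covalent bond, was read in 11 of 18 LOC cells and 10 of 13 MOC cells. Its level ran from 0 CPM over a median of 3.36 CPM to 87.8 CPM in LOC cells, and from 0 CPM over a median of 2.23 CPM to 309 CPM in MOC cells. MOC cells 8, 9 and 13 held 601 of the 688 MOC counts. The difference of means of -0.39 was 0.02 without MOC cell 9. Among cells with at least 50 cholinergic reads Scn3b stood at 26.4 CPM in LOC cells and 8.27 CPM in MOC cells. This difference of 1.51 met the rule in the direction of LOC, as did 14.4% of all measured genes in that set. The direction of Scn3b thus depends on which cells are counted.

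Nalcn, the sodium leak channel, was read in 17 of 18 LOC cells and 12 of 13 MOC cells. Its level ran from 0 CPM over a median of 59.2 CPM to 249 CPM in LOC cells, and from 0 CPM over a median of 9.38 CPM to 174 CPM in MOC cells. The ranges overlapped over most of their length, with 2 LOC cells above the highest MOC cell and 16 of 18 LOC cells above the MOC median. The mean of log2(CPM + 1) was 5.28 ± 2.09 in LOC cells (SD, n = 18) and 3.40 ± 1.93 in MOC cells (SD, n = 13), a difference of 1.88.

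Summed over cells, Nalcn stood at 68.6 CPM in LOC cells (64.4 to 73.0) and 20.4 CPM in MOC cells (18.1 to 22.9), a ratio of 3.36. MOC cell 5 held 37.4% of the MOC counts, and without it the ratio was 5.14. Among cells with at least 50 cholinergic reads, 12 LOC and 5 MOC cells, the difference was 0.96 and the ratio 1.88, which no longer met the rule.

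Of the 5 genes of the NALCN complex, Nalcn alone met the rule, and the median difference of the 5 was 1.04. The scaffold genes Unc80 and Unc79, whose proteins bind NALCN, had differences of 1.07 and 1.04 but summed ratios of 1.74 and 1.73. Unc80 stood at 135 CPM in LOC cells and 77.7 CPM in MOC cells, and Unc79 at 56.7 CPM in LOC cells and 32.9 CPM in MOC cells. Nalf1, which encodes an auxiliary subunit of the channel, stood at 63.3 CPM in LOC cells and 40.3 CPM in MOC cells, with a difference of means of -0.11. MOC cell 4 held 74.05% of the MOC counts of Nalf2, its relative.

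Of 48 other measured genes of the family and its partners, 3 met the rule for LOC and 3 for MOC. That is 6.25% in each direction, near the shares of all measured genes given above. In the list of 10 alpha subunits, which includes the 5 above, 4 met it for LOC and 1 for MOC, with a median difference of 0.25. Besides Scn9a, Scn3a and Scn2a these were Scn7a for LOC and Scn11a for MOC. Scn7a stood at 12.9 CPM in LOC cells and 0.29 CPM in MOC cells, but LOC cell 13 held 73.4% of its LOC counts. Scn11a, the gene of a channel known from sensory ganglia, stood at 0.56 CPM in LOC cells and 11.2 CPM in MOC cells, and MOC cell 10 held 50.3% of its MOC counts.

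The FGF homologous factors bind the tail of the alpha subunit and shift its inactivation. All 4 had a difference of means below 0, as did 54.3% of all measured genes, with a median of -0.76. The summed level of Fgf14 went the other way, with 20.1 CPM in LOC cells and 11.9 CPM in MOC cells, and the difference of medians of Fgf13 was 0.12. Fgf11 met the rule for MOC with 9.82 CPM in LOC cells and 34.0 CPM in MOC cells. MOC cell 5 held 49.6% of the MOC counts of Fgf11. Of 9 genes of the axon initial segment and node 1 met the rule, again for MOC: Cntnap1, a protein of the junction beside the node, stood at 23.3 CPM in LOC cells and 57.9 CPM in MOC cells. Their median difference was 0.31.

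None of 12 other partners of the channels met the rule, at a median difference of -0.36. Of 13 genes of the sodium pump, which returns sodium to the outside, Fxyd6 and Fxyd5 met the rule for LOC and none for MOC, at a median of 0.15. Both encode small membrane proteins that adjust the pump. Fxyd6 stood at 559 CPM in LOC cells and 76.6 CPM in MOC cells, a difference of 3.40, and Fxyd5 at 25.7 CPM in LOC cells and 4.33 CPM in MOC cells, where MOC cell 13 held 91.5% of the MOC counts.

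Among LOC cells, the 3 with the lowest alpha subunit levels were rich in oligodendrocyte reads. The summed CPM of the 5 alpha subunits ran from 52.7 over a median of 473 to 1629 in LOC cells, and from 30.5 over a median of 214 to 1047 in MOC cells. Across cells its log2 value went with that of the 10 oligodendrocyte genes at Pearson's r = -0.62 and Spearman's rho = -0.59 in 18 LOC cells and at 0.05 and 0.04 in 13 MOC cells, a description of values that share each cell's library and total. The LOC cells with the lowest alpha subunit levels, cells 17, 9 and 2 with 52.7, 54.9 and 85.4 CPM, had 23.9%, 12.3% and 17.2% of their counts in oligodendrocyte genes. The next lowest, LOC cells 16 and 15 with 217 and 331 CPM, had only 4.08% and 1.58%. LOC cell 5 did not follow either, with 11.9% of its counts in oligodendrocyte genes and 648 CPM of alpha subunits. At the other end, LOC cell 14 had 1629 CPM of alpha subunits, almost no oligodendrocyte reads, 0 cholinergic reads and 0 CPM of inhibitory neuron genes. Without the 3 libraries highest in oligodendrocyte genes, Scn9a, Scn3a, Scn2a and Nalcn still met the rule for LOC. Whether glial RNA set the levels of single cells was not tested.

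**Figure D4:**
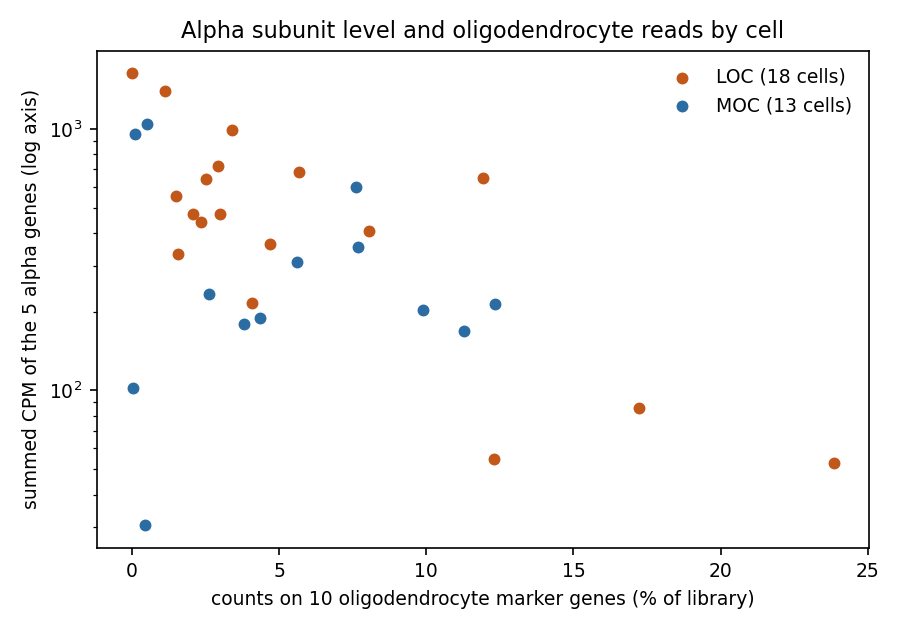
Summed CPM of the 5 alpha subunits on a log axis, against the percent of each library's counts on the 10 oligodendrocyte marker genes, with 1 point per cell for 18 LOC and 13 MOC cells. LOC cells 2, 9 and 17 have many oligodendrocyte reads and lie at 52.7 to 85.4 CPM, LOC cell 5 has 11.9% and lies at 648 CPM, and MOC cells show no such order (r = 0.05).

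Summed levels of other markers differed between the groups as well. The summed level of 10 microglial genes ran from 31.1 over a median of 170 to 2031 CPM in LOC cells, and from 40.7 over a median of 592 to 9480 CPM in MOC cells. That of 4 genes of inhibitory neurons ran from 0 over a median of 176 to 949 CPM in LOC cells, and from 10.1 over a median of 281 to 2990 CPM in MOC cells, with MOC cell 8 highest in both lists. Without the 3 libraries highest in either list the same 4 members met the rule for LOC, and Scn4b met it for MOC with differences of -1.17 and -1.08.

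A few libraries also stood apart in the genes of vesicular glutamate transporters, Slc17a7, Slc17a6 and Slc17a8, which mark glutamatergic neurons. Their summed level ran from 2.11 over a median of 70.1 to 709.7 CPM in LOC cells, with LOC cell 14 highest, and from 0.75 over a median of 86.8 to 733 CPM in MOC cells, with MOC cell 2 highest and MOC cell 13 next at 413 CPM. These cells held the highest levels of several members: LOC cell 14 of Scn2a and Scn8a in LOC, MOC cell 2 of Scn1a in MOC and MOC cell 13 of Scn3b in MOC. Without these 3 libraries, an alternative chosen after seeing the data, Scn9a, Scn3a, Scn2a and Nalcn met the rule for LOC with differences of 2.46, 1.86, 1.72 and 1.42. Scn4b then met it for MOC with -1.23, and the difference of Scn8a was 0.07. Whether glutamatergic cells added RNA to these libraries was not tested.

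The members varied together only in part. Among LOC cells the closest pairs, by Pearson's r of log2(CPM + 1), were Scn1a with Scn9a (0.73), Scn1a with Scn2a (0.62), Scn1a with Scn3a (0.61) and Scn3a with Scn9a (0.61). Among MOC cells Scn4b went with Nalcn (0.77) and Scn1a with Scn8a (0.64), while Scn3b ran against Nalcn (-0.74), which had an r of 0.58 with Scn3b among LOC cells. All such values compare cells that share depth and glial content, and with so many pairs the extremes are not singled out as results.

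Across all 31 cells and 10973 genes, the genes whose log2(CPM + 1) was most like that of each member had an r between 0.67 and 0.79. They were picked as the highest of this search, and a difference between LOC and MOC cells can raise r. None is singled out as a result. Scn9a was most like Malat1 (0.77), a nuclear RNA, followed by Rmdn1 (0.76) and Mirg (0.75). Scn3a was most like Gm44797 (0.79), Oprl1, the nociceptin receptor gene (0.75), and Celf3 (0.74). Scn2a was most like Ubxn7 (0.72), and Nalcn like Tmem145 (0.76). Among the genes most like Scn1a were Pld3 (0.75) and Fgf12, one of the FGF homologous factors (0.74). By rank, rho was 0.44 for Pld3 and 0.70 for Fgf12.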

How the data were processed

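Single-cell Smart-seq2 libraries of 18 LOC and 13 MOC neurons, made with the unstranded Nextera kit and read as pairs of 75 bp per the deposited description of the series, were analysed from 2 tables. The authors deposited raw read counts per gene. The authors also deposited a normalized signal table for 20784 genes, CPM on TMM-adjusted sizes by its name, used here as an alternative scaling. The submitters' processing notes name bcl2fastq, STAR 2.5.2, DESeq2, edgeR, limma, GRCm38 and mm10 without roles; these sources do not give the counting tool or say what was done with reads matching several genes.

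CPM was computed on the total over mouse genes. Group sums carry exact 95% Poisson intervals, which treat each read as an independent count and leave out the spread between cells. The reads carry no molecular identifiers, so copies of 1 molecule may be counted apart and the intervals may be too narrow. Means and SDs are of log2(CPM + 1) over cells. Each library is 1 cell and no animal is named, so a group is 1 sample and no test was run. edgeR 4.0.16 and DESeq2 1.42.0 (R 4.3.3) gave only alternative library sizes. Doublets were not called, since each cell was aspirated singly. Positions, exon lengths and transcripts came from GENCODE M21 on GRCm38, counted from 1.

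The members and lists were chosen with earlier results of these data known. Named besides the 9 members are list genes that met the rule of size, up to 4 per list, and the genes most like a member, some of which are not reported here. Unc79, Unc80, Nalf1, Nalf2, Fgf13, Fgf14 and Scn10a were named after their values were seen. The same holds for the single values of the markers Prph, Gad1, Gad2, Slc32a1 and Slc6a5. The rule was also run on simulated counts with set differences, in which all cells of a group shared the same mean profile. That run does not cover glial content that differs between cells. Alternatives were summed counts, medians, a pseudocount of 10, other library sizes, thinning to 300000 counts, other minimum shares of cells, and other sets of cells.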

Additional observations from a re-analysis of the deposited data

How the results depend on the processing

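Under 15 alternatives, 1 of them (without the 3 libraries highest in glutamatergic genes) chosen after seeing the data, and with each of the 31 cells left out in turn, 4 members met the rule for LOC each time. They were Scn9a, Scn3a, Scn2a and Nalcn, except among cells with at least 50 cholinergic reads, where Nalcn missed it (difference 0.96) and Scn3b met it. The rule was not equally strict throughout. The share of all measured genes that met it for LOC ran from 2.08% with a pseudocount of 10 to 20.5% with summed counts. With at least 50 cholinergic reads that share was 14.4%. The count for MOC was 0 as reported, 2 with summed counts (Scn3b and Scn4b, where 20.5% of genes met it), and 1 (Scn4b) in each of 5 sets of cells: with at least 10 or at least 50 cholinergic reads, and without the 3 libraries highest in microglial, inhibitory neuron or glutamatergic neuron genes. The share of all measured genes for MOC was 6.9% with at least 10 and 9.66% with at least 50 cholinergic reads. The count for MOC ranged from 0 to 1 with 1 cell left out. The cause was not tested. Without 1 cell in turn, the difference of Nalcn ranged from 1.60 to 2.22. The alpha subunit shares were run under 9 other settings and with each cell of the group left out. Cells with at least 50 cholinergic reads were not run alone for the shares. The mean shares moved by less than 1 SD, which is a wide margin, since for Scn3a and Scn9a the SD exceeded the mean in both groups. No paired analysis was possible because each group counts as 1 sample with no test, and the cell numbers in the labels only name cells. At 2.14 to 8.42 CPM per LOC cell and 1.14 to 5.02 CPM per MOC cell for 3 counts, the low levels of Scn9a and Scn3a in MOC cells are near what a single library can show.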
